A study of Danio rerio with 4 samples.

Results

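Claudins and the other genes of the tight junction were described here in coronary endothelial cells, the lining of the heart's own vessels, of zebrafish whose ventricles had been cryoinjured. The members were all rows of the deposited gene table whose symbol names a claudin or claudin-domain gene (cldn), a zonula occludens scaffold (tjp), occludin (ocln), a junctional adhesion molecule (jam), a MARVEL-domain gene (marveld) or a cingulin (cgn), 35 of 20306 genes. Of these, 23 reached a normalized count of 10 in 2 or more of the 4 libraries and were tested. The study compared 2 populations by bulk RNA sequencing, with 2 libraries each. Both came from wild-type fish at 7 days after cryoinjury, carried a red reporter driven by a fragment of the flt1 promoter and a yellow reporter of cxcr4a, and were sorted as red cells. Cells with the yellow reporter (-0.8flt1:RFP+/cxcr4a:YFP+) are called Regenerating here, and cells without it (-0.8flt1:RFP+/cxcr4a:YFP-) Non-Regenerating. The table heads its columns with these names, but the labels leave the match of heading to gate unstated. The yellow gate was matched to the heading Regenerating from knowledge of the reporter lines. The labels do not give the age of the fish, the number pooled per library, or the animals behind each replicate. The p-values therefore rest on library-to-library spread alone, and that spread may be technical.

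Tight junctions seal the space between neighbouring endothelial or epithelial cells. Claudins, small membrane proteins, form their strands and set which ions and solutes pass. Occludin and some of its MARVEL-domain relatives lie in the same strands, and junctional adhesion molecules hold the membranes together. The zonula occludens and cingulin proteins tie the strands to the actin cytoskeleton from the inside. In mammals the claudin of vessels is claudin 5, a main component of the blood-brain barrier, while claudins 3 and 7 are best known from epithelia.

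The values are normalized counts, scaled and rounded by the authors, and summed to 10662434 and 10481747 in Regenerating, against 10761712 and 10564201 in Non-Regenerating. The sorted cells carried the markers of their label, with the endothelial cadherin gene cdh5 at 11674 and 11643 in Regenerating, against 11920 and 12629 in Non-Regenerating. All 15 pan-endothelial markers found were tested, and their summed level was 75881 and 82172 in Regenerating, against 90464 and 92724 in Non-Regenerating. At an unadjusted p under 0.05, 2 of them (vwf and tek) were lower in Regenerating, 0 were higher and 13 did not pass. The gene vwf read 4126 and 5988 in Regenerating, against 13350 and 9620 in Non-Regenerating. Among all tested genes, 7.62% were higher and 5.19% lower at this level. The gate gene cxcr4a read 2285 and 2242 in Regenerating, against 585 and 590 in Non-Regenerating. The gene flt1, whose promoter fragment drove the red reporter, read 5496 and 5925 in Regenerating, against 6595 and 6649 in Non-Regenerating. Markers of other cells were present in both groups. The 14 cardiomyocyte markers found summed to 48013 and 17838 in Regenerating, against 7721 and 3944 in Non-Regenerating, and 12 of them had an unadjusted p under 0.05 and were higher. The 12 endocardial markers summed to 19054 and 18865 in Regenerating, against 30507 and 24228 in Non-Regenerating. Of these, 8 had an unadjusted p under 0.05 and were lower, 0 were higher and 4 did not pass. Their median log2 fold change, Regenerating minus Non-Regenerating, was -1.83.

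Claudin genes held the largest differences among the 23 tested genes. The epithelial-type claudins cldn7b, cldn7a and cldnc, the endothelial claudin cldn5a and the MARVEL-domain gene marveld1 were higher in both Regenerating libraries than in either Non-Regenerating library. The claudins cldn7b, cldnc and cldn7a were 21.5-fold, 4.36-fold and 3.59-fold higher, cldn5a 1.76-fold and marveld1 1.59-fold. The paralogue of cldn5a, cldn5b, had a fold of 0.988 and overlapping groups. Among the scaffolds and adhesion molecules at high level, tjp1a, cgnl1 and jam2a differed by much less. The adhesion molecule gene jam3b was 1.4-fold higher, without overlap between groups (unadjusted p = 0.0743 by limma).

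No member passed limma with Benjamini-Hochberg adjustment over all 16928 tested genes, against 0.00591% of all tested genes. The smallest adjusted p of a member was 0.109, for cldn7b. At an unadjusted p under 0.05 there were 5 members higher in Regenerating (cldn7b, cldn7a, cldnc, cldn5a and marveld1) of 23 tested, against 7.62% of all genes, and 0 lower, against 5.19% of all genes. In 8 members both Regenerating libraries lay above both Non-Regenerating libraries, where 21.8% of all genes did, and in 5 both lay below, where 21.5% did. The median log2 fold change (log2 of value + 1, Regenerating minus Non-Regenerating) was 0.13 over the 23 members and 0.00 over all tested genes, and 12 members were above 0 and 11 below. Quantile scaling brought the median of the members to 0.00, where that of all tested genes was -0.04. Leaving out Regenerating replicate 1 gave a member median of 0.23, against 0.01 over all tested genes. The number of members higher at an unadjusted p under 0.05 moved with the libraries used. The share of all tested genes at that level moved as well. Each fit without a library leaves 1 group with a single library, which is assumed to vary like the other group. The number came to 3 when Regenerating replicate 1 was left out, to 2 when Regenerating replicate 2 was, to 3 when Non-Regenerating replicate 1 was and to 6 when Non-Regenerating replicate 2 was. The genes cldn7b and cldn7a were counted in each of these fits, and cldnc, cldn5a and marveld1 in some of them. In the fit that left out Non-Regenerating replicate 2, cgnl1 and cldnd1b were lower at this level. In bulk libraries, a gene's level in fewer cells and less of its RNA per cell cannot be told apart.

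**Figure D1:**
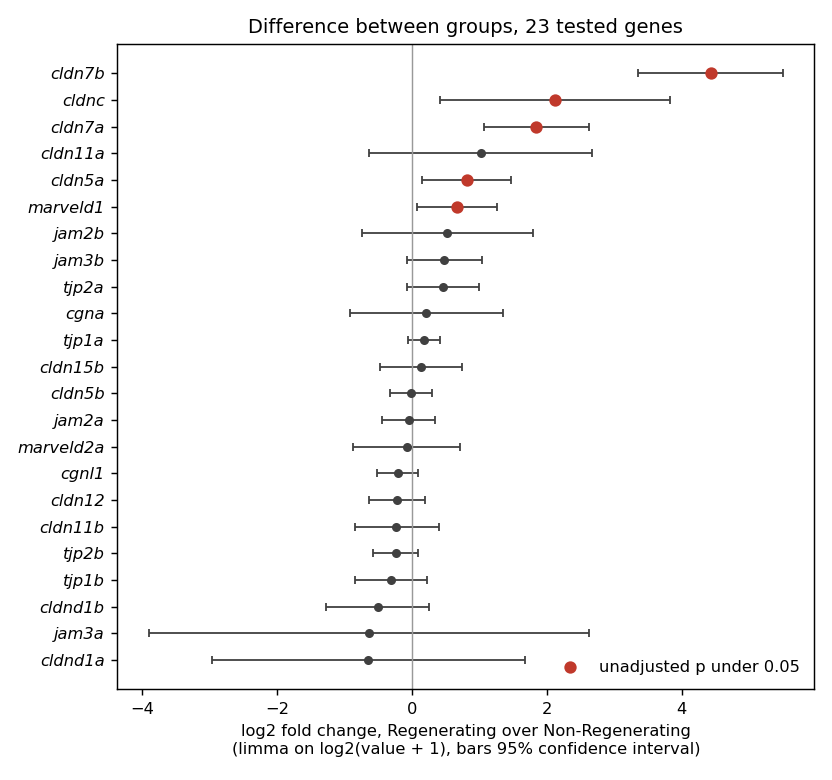
Log2 fold change of each of the 23 tested tight junction genes (horizontal axis, Regenerating over Non-Regenerating, limma on log2 of value + 1), with bars for the 95% confidence interval and red points for an unadjusted p under 0.05. The interval of cldn7b runs from 3.36 to 5.50, and those of cldn5b and tjp1a are narrow and include 0.

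The claudin 7 genes, known in mammals as epithelial claudins that bind the adhesion protein EpCAM, stood furthest apart between the groups. The cldn7b gene (ENSDARG00000014047, chromosome 10, 22144768 to 22150419, minus strand, danRer11) read 193 and 235 normalized counts in Regenerating, against 8 and 10 in Non-Regenerating. It was near the limit of 10 in both Non-Regenerating libraries and would have been tested on its Regenerating values alone. Its log2 fold change was 4.43 (SE 0.42, unadjusted p = 0.000117, adjusted p = 0.109 by limma), and 16 of all tested genes had a smaller p. With a pseudocount of 10 the log2 fold change was 3.56, and with any 1 library left out it lay between 4.28 and 4.57. Its paralogue cldn7a (ENSDARG00000036376, chromosome 7, 22616212 to 22626853, plus strand) read 427 and 437 in Regenerating, against 96 and 149 in Non-Regenerating. The groups did not overlap, and the log2 fold change was 1.84 (SE 0.30, unadjusted p = 0.00165, adjusted p = 0.164).

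The gene cldnc (ENSDARG00000015955, chromosome 21, 25754268 to 25756119, minus strand), whose protein the table annotates as Claudin-3, read 338 and 364 in Regenerating, against 158 and 40 in Non-Regenerating. The Regenerating libraries were close to each other and the Non-Regenerating libraries far apart. Its log2 fold change was 2.12 (SE 0.67, unadjusted p = 0.0237, adjusted p = 0.309), or 4.36-fold. The fold was 2.21 when Non-Regenerating replicate 2 was left out and 8.58 when replicate 1 of that group was.

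The claudin 5 genes are relatives of the vessel claudin of mammals. The cldn5a gene (ENSDARG00000043716, chromosome 8, 4697764 to 4699320, plus strand) read 1256 and 1756 in Regenerating, against 710 and 1006 in Non-Regenerating. The lower Regenerating library was above the higher Non-Regenerating library, with a log2 fold change of 0.81 (SE 0.26, unadjusted p = 0.025, adjusted p = 0.314). The cldn5b gene (ENSDARG00000014059, chromosome 10, 43994471 to 43996117, plus strand) read 2901 and 3064 in Regenerating, against 2820 and 3228 in Non-Regenerating. Its groups overlapped, and the 95% interval of its log2 fold change ran from -0.33 to 0.30.

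**Figure D2:**
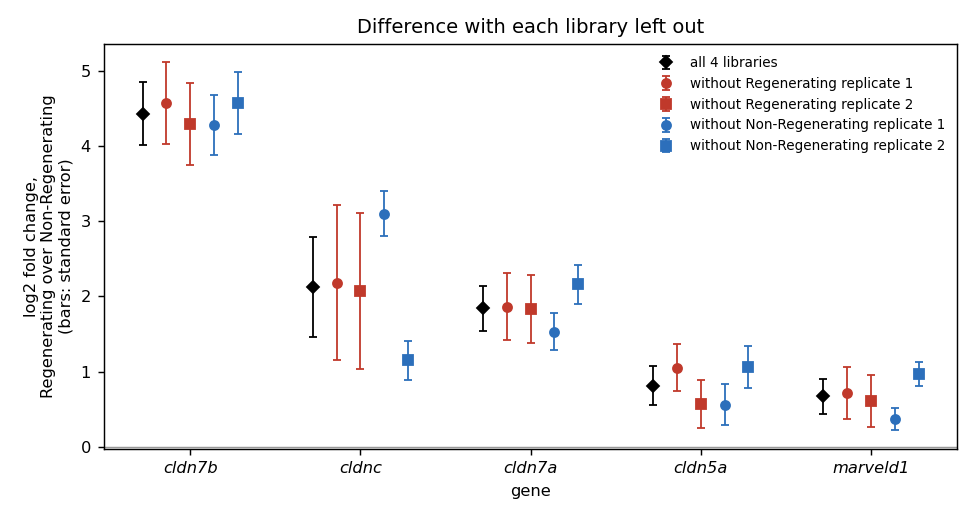
Log2 fold change (vertical axis, Regenerating over Non-Regenerating, bars for the standard error) of the 5 members with an unadjusted p under 0.05, fitted with all 4 libraries (black) and with each library left out. All values are above 0, and those of cldnc spread most, from a fold of 2.21 to a fold of 8.58.

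Other claudins lay nearer to 0 or had wide intervals. The gene cldn12, a claudin that in mammals lacks the usual tail for binding scaffolds, read 1511 and 1525 in Regenerating, against 1984 and 1583 in Non-Regenerating, with a log2 fold change of -0.22 (95% interval -0.63 to 0.19). The gene cldn15b, a relative of a pore-forming claudin of the mammalian gut, read 233 and 268 in Regenerating, against 217 and 239 in Non-Regenerating, with overlapping groups. The claudin 11 genes are relatives of the claudin of myelin and of the blood-testis barrier in mammals. The cldn11b gene read 219 and 239 in Regenerating, against 242 and 296 in Non-Regenerating, and cldn11a read 48 and 130 in Regenerating, against 28 and 53 in Non-Regenerating. Neither passed at an unadjusted p under 0.05, and the interval of cldn11a was wide, from -0.63 to 2.67. The claudin-domain gene cldnd1b, whose product is a claudin-like membrane protein, read 480 and 399 in Regenerating, against 804 and 484 in Non-Regenerating (log2 fold change -0.51, unadjusted p = 0.149), and cldnd1a, with 20 and 6 in Regenerating, against 32 and 10 in Non-Regenerating, passed the limit on low values by the least.

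Of the 21 epithelial marker names, 14 matched a row and 9 were tested, with 0 higher and 2 lower in Regenerating at an unadjusted p under 0.05, 7 that did not pass and none at 0 in all libraries. Their summed level was 12878 and 13603 in Regenerating, against 14957 and 15331 in Non-Regenerating. The 2 were the epithelial protease inhibitor gene spint2, which read 51 and 62 in Regenerating, against 444 and 175 in Non-Regenerating, and the keratin gene krt91, which read 467 and 204 in Regenerating, against 1231 and 758 in Non-Regenerating. Of the others, tp63, a transcription factor gene of stratified epithelia, lay on the side of the claudins, at 82 and 82 in Regenerating, against 28 and 53 in Non-Regenerating (unadjusted p = 0.0691), while the epithelial cadherin gene cdh1 read 11 and 23 in Regenerating, against 57 and 27 in Non-Regenerating (unadjusted p = 0.117). The keratin genes krt4, krt8 and krt18a.1, which make up most of the sum, had log2 fold changes of -0.12, -0.10 and -0.09. The cardiomyocyte sums given above were higher in Regenerating. Among markers of white blood cells, 3 of 14 tested macrophage and monocyte markers, 3 of 5 neutrophil markers and 3 of 5 lymphoid markers were higher at an unadjusted p under 0.05, and the rest did not pass. Over all tested genes, 7.62% were higher and 5.19% lower at this level. The lymphoid genes cd79b, pax5 and il7r reached 10 only in Regenerating libraries, and cd79b and pax5 were at 0 in Non-Regenerating. Both were among the lymphoid markers counted as higher, so the limit on low values partly set that count. The 14 macrophage and monocyte markers found summed to 9541 and 9637 in Regenerating, against 8100 and 6148 in Non-Regenerating, the 7 neutrophil markers to 5409 and 4530 in Regenerating, against 3116 and 2236 in Non-Regenerating, and the 8 lymphoid markers to 188 and 158 in Regenerating, against 72 and 45 in Non-Regenerating, where 2 of the 8 were at 0 in both libraries. Most of the neutrophil sums came from adam8a, at 3990 and 3464 in Regenerating, against 2576 and 2068 in Non-Regenerating. The 13 mural and smooth muscle markers summed to 24162 and 17280 in Regenerating, against 18505 and 10655 in Non-Regenerating. At an unadjusted p under 0.05, 3 of them were higher, 0 lower and 10 did not pass. The 13 epicardial and fibroblast markers summed to 25990 and 28284 in Regenerating, against 34780 and 31673 in Non-Regenerating. They split in direction, with 5 lower at this level (dcn, col1a2, col1a1a, pdgfra and aldh1a2), 3 higher (postnb, fn1b and wt1b) and 5 that did not pass. The 8 Schwann and glial markers summed to 282 and 134 in Regenerating, against 234 and 156 in Non-Regenerating, and the 7 erythrocyte and thrombocyte markers to 975 and 805 in Regenerating, against 1029 and 1787 in Non-Regenerating. The part of these other cells in the claudin values was not tested.

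**Figure D3:**
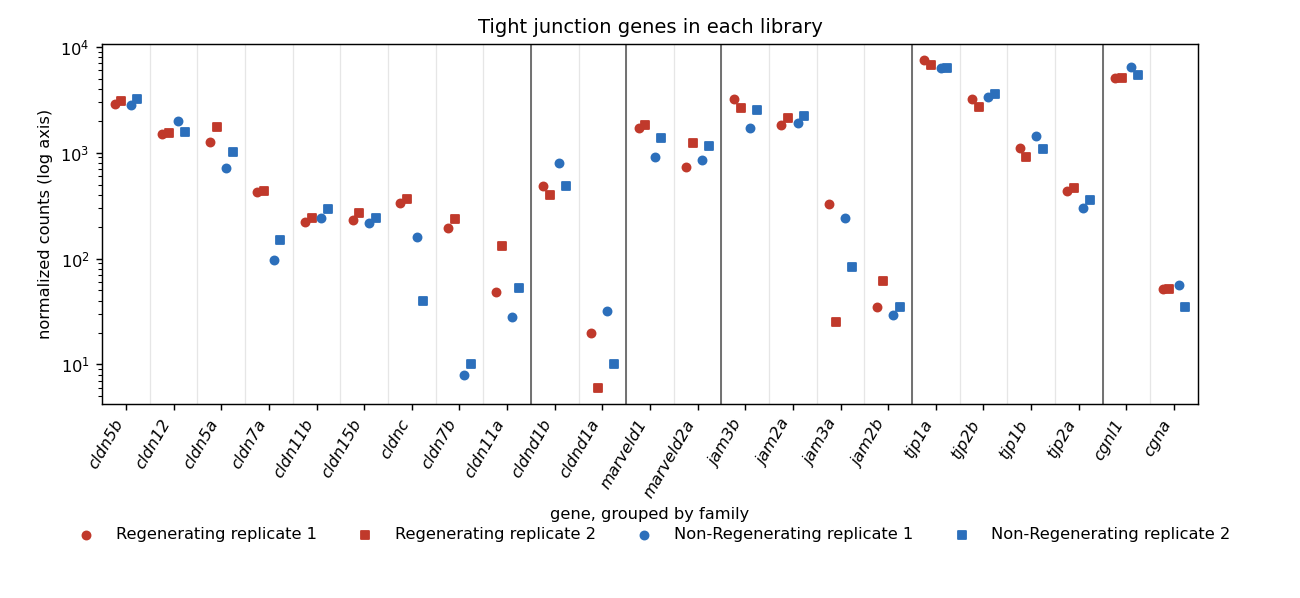
Normalized counts (log axis) of the 23 tested genes in each library, grouped by family and ordered within a family by mean, with Regenerating in red and Non-Regenerating in blue. The counts of cldn7b, 193 and 235 in Regenerating, against 8 and 10 in Non-Regenerating, are the most separated, while jam3a varies most between replicates.

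Many of these genes exist as paralogue pairs in zebrafish, and the balance within a pair was compared within each library, where scaling between libraries cancels. Shares are of normalized counts not corrected for length, so they compare libraries and not copies. The share of cldn5a in the claudin 5 pair was 30.2% and 36.4% in Regenerating, against 20.1% and 23.8% in Non-Regenerating. In the claudin 7 pair the share of cldn7a was 68.9% and 65% in Regenerating, against 92.3% and 93.7% in Non-Regenerating. The share of tjp2a in its pair was 12.1% and 14.6% in Regenerating, against 8.25% and 9.02% in Non-Regenerating, and that of tjp1a 87% and 88.1% in Regenerating, against 81.2% and 85.4% in Non-Regenerating. The Regenerating shares lay outside the Non-Regenerating range in these pairs. This also held for cldn11a, at 18% and 35.2% in Regenerating, against 10.4% and 15.2% in Non-Regenerating, and, by small margins, for jam2a, at 98.1% and 97.2% in Regenerating, against 98.5% and 98.5% in Non-Regenerating. In the pair of jam3a and jam3b they overlapped, with 9.28% and 0.931% for jam3a in Regenerating, against 12.3% and 3.21% in Non-Regenerating. With 2 libraries a group, an exact permutation test of such a share cannot go below a two-sided p of 0.333, so no test was made. For single genes, both Regenerating libraries lay above both Non-Regenerating libraries in 21.8% of all tested genes and below in 21.5%. Such a rate was not computed for shares of gene pairs. The claudin 7 shares rest on cldn7b at 8 and 10 in Non-Regenerating. How far reads of paralogues can be told apart was not analysed here.

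**Figure D4:**
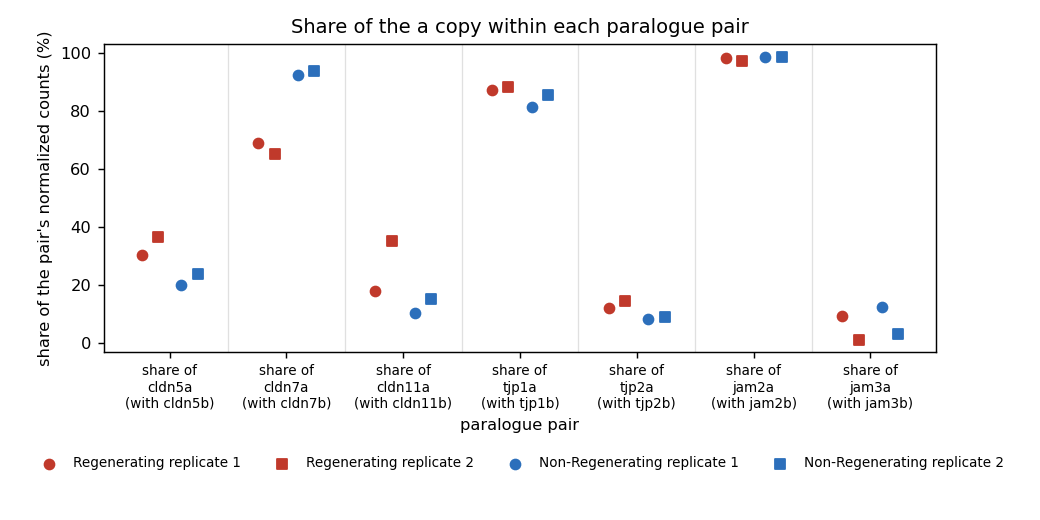
Share of the copy named a in the summed normalized counts of each paralogue pair (vertical axis, percent), with Regenerating in red and Non-Regenerating in blue. The share of cldn5a is 30.2% and 36.4% in Regenerating, against 20.1% and 23.8% in Non-Regenerating, and the share of cldn7a is lower in Regenerating.

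Among occludin and the MARVEL-domain genes, marveld1 encodes a MARVEL-domain membrane protein, whose place in the junction was not tested. The marveld1 gene (ENSDARG00000011724, chromosome 13, 39532050 to 39533365, plus strand) read 1697 and 1835 in Regenerating, against 903 and 1364 in Non-Regenerating. The groups did not overlap, and the log2 fold change was 0.67 (SE 0.23, unadjusted p = 0.0326, adjusted p = 0.341). The tricellulin gene marveld2a, whose product in mammals seals the points where cells meet in a corner, read 728 and 1221 in Regenerating, against 850 and 1162 in Non-Regenerating. Its groups overlapped, and its interval ran from -0.87 to 0.71. The occludin gene oclna read 4 and 11 in Regenerating, against 2 and 1 in Non-Regenerating, too low to be tested, and marveld2b and marveld3 were lower than the limit as well. The genes marveld2a and oclna lie on the same strand of chromosome 10 with 201 bases between their annotated spans.

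Among junctional adhesion molecules, no gene had an unadjusted p under 0.05 by limma, and replicates of some lay far apart. The genes jam2a and jam3b encode partners that bind each other between muscle precursors in zebrafish. The jam3b gene read 3179 and 2660 in Regenerating, against 1725 and 2502 in Non-Regenerating, with no overlap (log2 fold change 0.48, SE 0.22, unadjusted p = 0.0743, adjusted p = 0.451). The jam2a gene read 1825 and 2142 in Regenerating, against 1891 and 2226 in Non-Regenerating, and its interval ran from -0.45 to 0.34. The other copies were at lower counts. The jam3a gene read 325 and 25 in Regenerating, against 242 and 83 in Non-Regenerating, so replicates differed by more than the groups. Its log2 fold change was -0.63 (SE 1.28), and leaving out Regenerating replicate 2 gave 1.19 while leaving out replicate 1 of that group gave -2.46. It was 0.13 when Non-Regenerating replicate 1 was left out. The jam2b gene read 35 and 61 in Regenerating, against 29 and 35 in Non-Regenerating.

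The scaffolds on the inner side of the junction come next. The tjp1a gene, a zonula occludens scaffold that binds claudin tails, read 7437 and 6775 in Regenerating, against 6253 and 6275 in Non-Regenerating (log2 fold change 0.18, 95% interval -0.06 to 0.42). Its paralogue tjp1b read 1107 and 913 in Regenerating, against 1450 and 1072 in Non-Regenerating, with overlapping groups. The related scaffold gene tjp2a read 437 and 467 in Regenerating, against 301 and 357 in Non-Regenerating, above in both libraries (log2 fold change 0.46, SE 0.21, unadjusted p = 0.0783). The other copy, tjp2b, lay the other way, at 3178 and 2725 in Regenerating, against 3347 and 3601 in Non-Regenerating (-0.24, SE 0.13, unadjusted p = 0.121). The paracingulin gene cgnl1, whose product links junctions to actin and microtubules, read 5049 and 5098 in Regenerating, against 6414 and 5381 in Non-Regenerating (-0.21, 95% interval -0.52 to 0.09). The cingulin gene cgna read 51 and 52 in Regenerating, against 56 and 35 in Non-Regenerating. None of these scaffold genes had an unadjusted p under 0.05, and for tjp1a, tjp2b and cgnl1 the intervals lie within a log2 of 0.57 of 0.

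Not tested were 12 members, with 27 as the highest count in any library, in cldn10a in Non-Regenerating replicate 2. These were the claudin genes cldn2, cldn10a, cldn15lb, cldne, cldnf, cldng and cldni, the MARVEL-domain genes marveld2b and marveld3, oclna, tjp3 and cgnb. In 6 of them at least 1 library was at 0. The one nearest the limit with Regenerating above was cgnb, a second cingulin gene, at 17 and 8 in Regenerating, against 2 and 1 in Non-Regenerating. The neighbouring claudin genes cldne and cldnf, 9820 bases apart on chromosome 15, were both low. The cldne gene read 6 and 2 in Regenerating, against 5 and 18 in Non-Regenerating, and cldnf read 0 and 1 in Regenerating, against 7 and 5 in Non-Regenerating.

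The spans of 5 members overlap another annotated gene on the opposite strand, and the sources used here do not state whether counting used strand. The span of tjp1a overlaps terb2, which read 167 and 241 in Regenerating, against 92 and 125 in Non-Regenerating, far fewer than tjp1a. The span of cldn15b (53908609 to 53955218 on chromosome 5) overlaps that of naa38 (53876169 to 53908674) only at the edge of both. The naa38 gene read 329 and 300 in Regenerating, against 281 and 256 in Non-Regenerating. Reads in the short shared stretch could count for either gene. The cldn12 gene lies within adam22, which read 6 and 17 in Regenerating, against 14 and 10 in Non-Regenerating. The other overlaps were those of the untested cldn2 and cldni. No other gene of the table overlaps cldn7b, cldn7a, cldnc, cldn5a or marveld1.

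The partners of the junction were counted in 4 lists, of which 96 genes were tested. At an unadjusted p under 0.05 there were 11 higher and 11 lower in Regenerating, 22.9% of those tested, against 7.62% higher and 5.19% lower among all tested genes, 12.8% together. The lists were chosen with earlier results of these data known, so this share is a description and not a test. None passed adjustment over all genes (smallest adjusted p = 0.172). The total fell when Regenerating replicate 1, Regenerating replicate 2 or Non-Regenerating replicate 1 was left out, and so did the share of all tested genes. Among 19 adherens junction genes, 3 were higher and 2 lower. The gene plekha7b, which encodes a protein of the epithelial adherens belt, read 121 and 122 in Regenerating, against 39 and 39 in Non-Regenerating (log2 fold change 1.61, SE 0.35, unadjusted p = 0.00529, adjusted p = 0.198). The afadin gene afdna, an actin linker, read 3549 and 3529 in Regenerating, against 2560 and 2843 in Non-Regenerating. The beta-catenin gene ctnnb2 read 3362 and 3035 in Regenerating, against 4189 and 4036 in Non-Regenerating. The genes afdna and ctnnb2 lay in opposite directions. Both were picked by their small p, so their non-overlapping groups add no support.

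In the list of scaffold and polarity genes, 3 of 24 were higher and 1 lower, against 7.62% and 5.19% of all tested genes. The polarity kinase gene prkcz, an atypical protein kinase C that acts with Par3 and Par6 proteins in building tight junctions, read 698 and 638 in Regenerating, against 315 and 310 in Non-Regenerating (log2 fold change 1.09, SE 0.19, unadjusted p = 0.00197, adjusted p = 0.172). Of the tested Par6 genes, pard6ga and pard6gb lay in opposite directions, while pard6a and pard6b had overlapping groups. The pard6ga gene read 314 and 288 in Regenerating, against 102 and 172 in Non-Regenerating, and pard6gb read 1328 and 1147 in Regenerating, against 1824 and 1642 in Non-Regenerating. Of 9 other junctional immunoglobulin-type and tricellular genes, 1 was higher and 1 lower. The gene igsf5b, which encodes a junctional adhesion relative, read 1250 and 1537 in Regenerating, against 472 and 947 in Non-Regenerating. The gene f11r.1, which encodes junctional adhesion molecule A, read 671 and 663 in Regenerating, against 1152 and 836 in Non-Regenerating. The angulin gene ildr2 read 2218 and 2639 in Regenerating, against 1617 and 2095 in Non-Regenerating (unadjusted p = 0.0814).

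Of 44 regulators of the junction and of barrier endothelium, 4 were higher and 7 lower, against 7.62% and 5.19% of all tested genes. The 4 were mfsd2ab, shroom2a, sox17 and foxo1b. The 7 were foxc1a, arhgef18a, adgra2, wnt7aa, mfsd2aa, foxf2a and abcb4. The forkhead transcription factor gene foxc1a read 166 and 86 in Regenerating, against 995 and 470 in Non-Regenerating (log2 fold change -2.51, SE 0.50, unadjusted p = 0.00379, adjusted p = 0.189). The gene mfsd2ab, whose mammalian relative is a lipid transporter of brain endothelium, read 4372 and 4163 in Regenerating, against 2806 and 3114 in Non-Regenerating. Its paralogue mfsd2aa lay the other way, at 42 and 31 in Regenerating, against 120 and 73 in Non-Regenerating. The gene shroom2a, whose family organizes actin at junctions, read 1001 and 542 in Regenerating, against 287 and 232 in Non-Regenerating. Each of these had groups that did not overlap, where 21.8% of all tested genes lay above in this way and 21.5% below. This adds no support for genes picked by their small p.

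**Figure D5:**
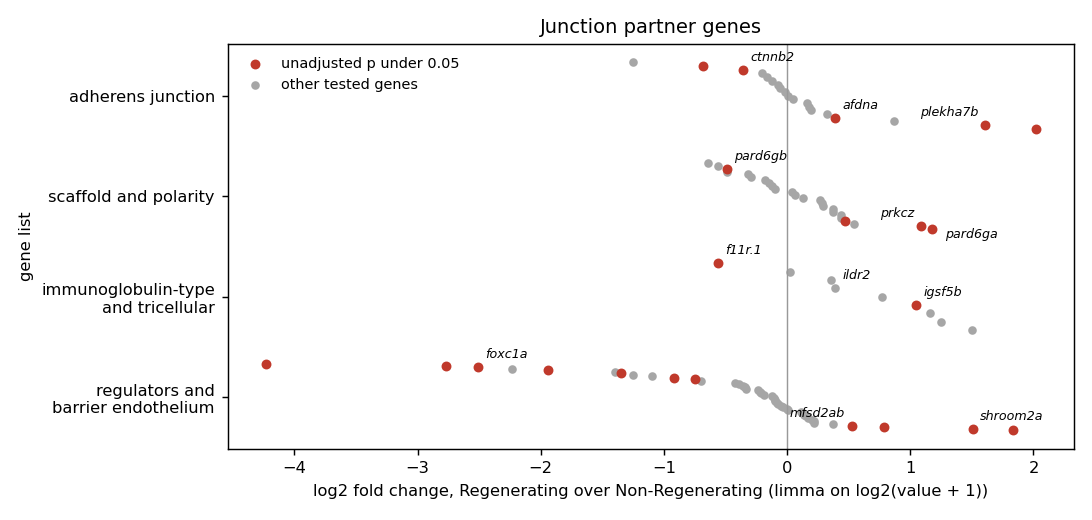
Log2 fold change (horizontal axis, Regenerating over Non-Regenerating, limma on log2 of value + 1) of the 96 tested partner genes in 4 lists, with red points for an unadjusted p under 0.05 and names for the 3 with the smallest p in each list. Points lie on both sides of 0, with 11 red points above and 11 below.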

How the data were processed

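The submitters' processing notes name the build danRer11 and the tools STAR 2.7.11a, featureCounts 2.0.4, Trimmomatic 0.39, Picard 3.1.1 and DESeq2 1.36.0, without saying what each did. Libraries were amplified to full-length cDNA from some 5 ng of RNA, per the labels' protocols. The score that the authors deposited is a normalized count in whole numbers, neither a raw count nor a rate, so no count model was used. Per-length levels were not computed, and levels are compared between libraries only. Genes that reached 10 in 2 or more libraries (16928) were taken as log2(value + 1) and fitted with limma 3.58.1 in R 4.3.3 (mean-variance trend, 2 residual and 3.08 prior degrees of freedom), with Benjamini-Hochberg adjustment over all tested genes. The fold of a low gene is understated on this scale. On simulated data (16928 genes, 5 runs, 200 changed genes each), limma called 5.2% of the genes given a log2 change of 1, 41.2% of those given 2, 78% of those given 4 and 90.4% of those given 6, with 0.0323% of unchanged genes called. The simulated noise was independent between genes and libraries and drawn from the spread that limma had fitted. The fit to the real libraries called 1 gene, and cldn7b, at a log2 fold change of 4.43, was not called. The simulated rates therefore do not give the power of the real comparison. By rule, members with a mean of at least 50 or among the 12 smallest p are given with all values, and the 3 smallest p per partner list. Other members, partner genes and marker genes were named after their values were seen. A list name matching more than 1 row was left out. Members and lists were chosen with earlier results of these data known. Alternatives were the replicate block, filters, pseudocount, scalings, no variance trend and each library left out. No column of values was left unused.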

Additional observations from a re-analysis of the deposited data

How the results depend on the processing

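Over 11 alternatives, 31 of 37 genes kept their direction throughout. The 37 were the 23 tested members, the 12 partner genes with the smallest p in their lists, cxcr4a and flt1. The direction changed for 6 members when a library was left out, with log2 fold changes of -0.12 to 0.54 for cgna (-0.02 with quantile scaling), -1.44 to 0.14 for cldnd1a, -0.11 to 0.08 for cldn5b (0.00 with quantile scaling), -0.17 to 0.06 for jam2a, -2.46 to 1.19 for jam3a and -0.45 to 0.30 for marveld2a. With a library left out, limma called 0 of all genes, against 1 with all libraries, and 1147 to 2101 genes had an unadjusted p under 0.05. In the same fits 2 to 6 members were higher and 0 to 2 lower at that level, the median of members was 0.14 to 0.23, and 7 to 22 partner genes passed. Without the variance trend, 0 of all genes were called (2026 at an unadjusted p under 0.05), and 2 members and 10 partner genes passed at that level. Quantile scaling gave a member median of 0.00, against -0.04 over all tested genes. The cause of these differences was not tested, beyond the loss of a sample. The labels give both groups the same replicate numbers but no shared animal, batch or day, and same-numbered libraries deviated together with a correlation of 0.339 across genes. With the replicate block, limma called 357 genes and 3 members (cldn7b, adjusted p = 0.0229, cldn7a, 0.0498, and cldn5a, 0.0499), with 8 members higher, 2 lower and 32 partner genes at an unadjusted p under 0.05, where 20.6% of all genes were, against 12.8% without the block. With 2 libraries a group, some log2 intervals were wide. Those of the low-count genes jam2b and cldnd1a ran from -0.74 to 1.79 and from -2.97 to 1.67. The widest of a member was that of jam3a, at higher counts, from -3.90 to 2.63.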
